A study of Homo sapiens with 9 samples.

Results

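The 10 genes described here encode parts of the NF-kB pathway and some of its best known products. They were chosen by symbol: the cytokines and chemokines IL6, CXCL8, CXCL1 and LIF, the inhibitors NFKBIA and TNFAIP3, and the subunits RELA, RELB, NFKB1 and NFKB2. All 10 were found among the 17911 genes of the deposited count table. The study profiled RNA from MDA-MB-231, an established line from a triple-negative breast cancer, grown in capsules or as spheroids, and its title sets these culture formats side by side. The labels name 3 samples per group: capsules, small liquid overlay spheroids and large liquid overlay spheroids. Every sample carries the label WT and one common treatment text, so the groups share 5% Matrigel (a basement membrane gel) and trastuzumab (which binds the receptor ERBB2), followed by 96 h before RNA was taken. The medium was RPMI with 10% fetal bovine serum.

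The count table has 3 capsule columns and 6 spheroid columns. By their names the spheroid columns form a set of 3 called L.O and a set of 3 called Sph.WT. Neither name gives a size, so the sets could not be tied to the small or the large spheroids and are called L.O and Sph.WT throughout. The capsule and L.O columns also share a style of file name that the Sph.WT columns do not, so the set and any difference in run or processing behind these styles cannot be told apart. The labels do not state whether replicates are separate cultures, and p-values therefore measure only the spread between these libraries, which may be technical.

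The libraries held between 13212665 and 33263076 counts, with 16892 to 17664 genes detected in each. The coefficient of variation between replicates beyond counting noise, as 1 common edgeR estimate over genes, was 6.01% in the capsule set, 8.31% in L.O and 8.12% in Sph.WT. Single genes can vary more or less than this, and counting noise adds to it at low counts. Levels are given as CPM, counts per 1e6 counts after TMM scaling, which corrects library totals for differences in composition. The labelled cell line was checked against its known markers. CDKN2A, which is deleted in MDA-MB-231, stood at 505 ± 47.1 CPM in the capsule libraries (SD, n = 3), 483 ± 105 in L.O and 0.856 ± 0.139 in Sph.WT. Over 20 genes typical of MDA-MB-231, the summed level was 1216 to 1307 CPM in the capsule libraries, 1361 to 1440 in L.O and 11260 to 12631 in Sph.WT. Of these 20 genes, 18 were called lower in L.O than in Sph.WT and 2, GSTP1 and SPARC, were called higher. Over 10 genes typical of HEK293, an embryonic kidney line, the sum was 2066 to 2244 CPM, 1794 to 1900 and 36.1 to 38.9 in the same order, and NEFL, PAX2, STMN2 and SOX2 had no count in Sph.WT. The libraries labelled capsule and L.O thus went against the MDA-MB-231 label in these markers and the Sph.WT libraries did not. Every comparison below rests on capsule libraries, L.O libraries or both. The part of this marker difference in the results was not tested.

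**Figure D1:**
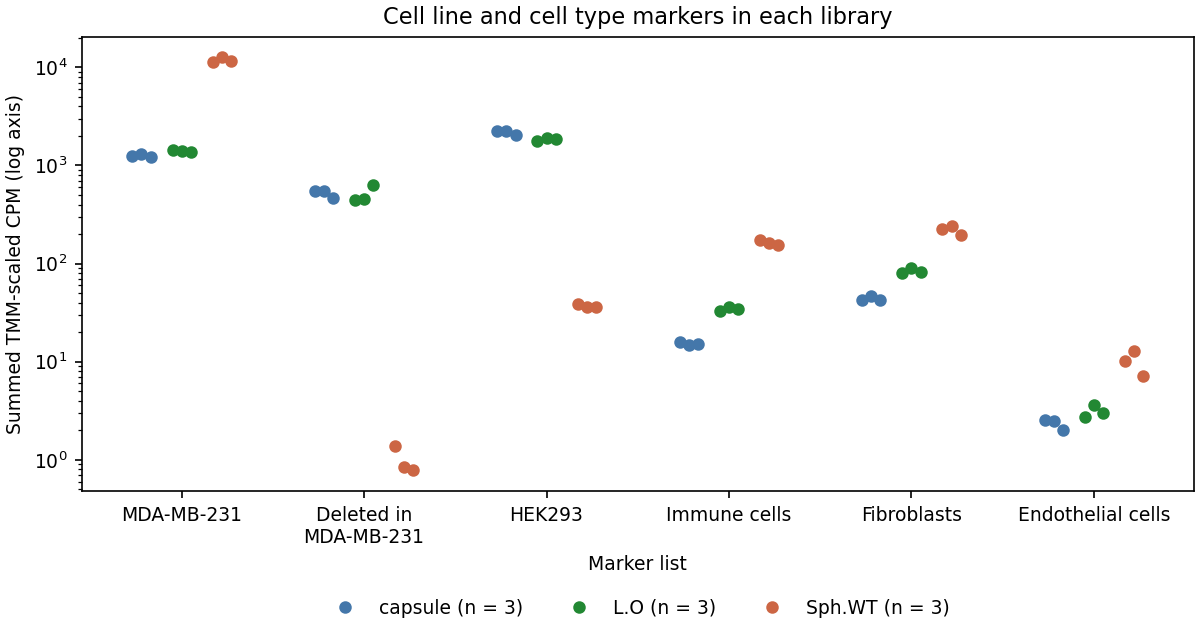
Summed TMM-scaled CPM (log axis) of 6 marker lists in each of the 9 libraries, with 1 point per library and colours for the 3 column sets. The Sph.WT points lie highest for the MDA-MB-231 list and lowest for the genes deleted in that line and for the HEK293 list, where capsule and L.O points lie close together.

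Markers of other cell types also moved with the sets. Of 7 immune markers 4 were in the table, and their sum was 14.7 to 15.99 CPM in the capsule libraries, 33.1 to 35.7 in L.O and 154 to 175 in Sph.WT. Of 7 fibroblast markers 6 were in the table, with sums of 42.5 to 46.5, 80.9 to 89.8 and 196 to 242 CPM. Of 6 endothelial markers 4 were in the table, with sums of 2.03 to 2.57, 2.74 to 3.62 and 7.16 to 12.8 CPM. In bulk RNA fewer cells of a type and less RNA per cell cannot be told apart, and the part of these cell types in the results was not tested.

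NF-kB is a family of dimeric transcription factors. In a resting cell IkB proteins such as the product of NFKBIA hold the dimers in the cytoplasm. Signals from receptors for interleukin-1, TNF and bacterial products activate IkB kinases, the IkB protein is degraded, and dimers such as RelA with the NFKB1 product enter the nucleus. A slower, non-canonical branch runs through the kinase MAP3K14 to RelB and the NFKB2 product. NFKBIA and TNFAIP3 are themselves induced by NF-kB and close a negative feedback loop. In breast cancer the pathway is known for driving inflammatory cytokines, and triple-negative lines such as MDA-MB-231 are known to secrete interleukin-6 and interleukin-8.

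Promoter windows from RefSeq (GRCh38.p14) were matched by symbol for 8 of the 10 genes, and LIF and RELB had none. They are shown for the 6 genes with a match to an NF-kB type motif at a first or single listed start. Being lower in the capsule and the L.O libraries than in Sph.WT, as described below, held for all 10 genes. It thus does not set these 6 apart. Each line gives the 150 bases before the start, 5′ to 3′ on the gene's strand, with matches to GGNNTTTCC on either strand in capitals.
IL6, chr7:22727050-22727199, plus strand: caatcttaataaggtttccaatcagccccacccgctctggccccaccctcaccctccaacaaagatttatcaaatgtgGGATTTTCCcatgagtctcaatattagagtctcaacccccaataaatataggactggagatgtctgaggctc
CXCL8, chr4:73740419-73740568, plus strand: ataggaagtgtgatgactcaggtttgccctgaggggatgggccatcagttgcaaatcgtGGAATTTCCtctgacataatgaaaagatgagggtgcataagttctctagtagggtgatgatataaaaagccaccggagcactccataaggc
CXCL1, chr4:73869243-73869392, plus strand: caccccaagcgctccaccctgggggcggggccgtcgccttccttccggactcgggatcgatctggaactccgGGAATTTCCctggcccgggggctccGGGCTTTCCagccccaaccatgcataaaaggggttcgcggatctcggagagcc
NFKBIA, chr14:35404750-35404899, minus strand: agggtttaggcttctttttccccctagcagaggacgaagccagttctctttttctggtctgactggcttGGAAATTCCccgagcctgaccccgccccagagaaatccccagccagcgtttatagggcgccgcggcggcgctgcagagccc
TNFAIP3, chr6:137867109-137867258, plus strand: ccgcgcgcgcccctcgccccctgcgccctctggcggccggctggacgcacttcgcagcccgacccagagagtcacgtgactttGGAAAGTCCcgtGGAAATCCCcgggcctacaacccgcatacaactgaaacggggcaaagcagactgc
NFKB1, chr4:102501209-102501358, plus strand: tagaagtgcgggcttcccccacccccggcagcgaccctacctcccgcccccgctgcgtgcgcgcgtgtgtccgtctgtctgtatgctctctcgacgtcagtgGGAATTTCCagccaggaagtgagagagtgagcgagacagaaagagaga

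The motif GGNNTTTCC was searched on both strands in the 250 bases before each start. It was found in 8 of 12 windows of these genes, which belong to 7 of the 8 genes, against 5.48% of 35116 RefSeq windows of the same length. A looser kB consensus, which overlaps that motif at most positions, was found in 7 of 12 windows against 9.96%. TATAAA was found in 2 of 12 windows, those of CXCL8 and NFKBIA, against 10.7%. In IL6 the motif lay 72 to 64 bases before the start, in CXCL8 91 to 83 bases before it, and in NFKB1 48 to 40 bases before the first of 2 listed starts. CXCL1 held 2 matches, 78 to 70 and 53 to 45 bases before the start, and TNFAIP3 held 2 on the reverse strand, 67 to 59 and 55 to 47 bases before it. NFKBIA held 1 match outside the sequence shown, 242 to 234 bases before the start, and 1 on the reverse strand 81 to 73 bases before it. NFKB2 had a match at the second and the third of its 3 listed starts, and no match was found in either window of RELA. A match is a description of letters, the motifs were chosen after the windows had been seen, and binding was not measured.

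**Figure D2:**
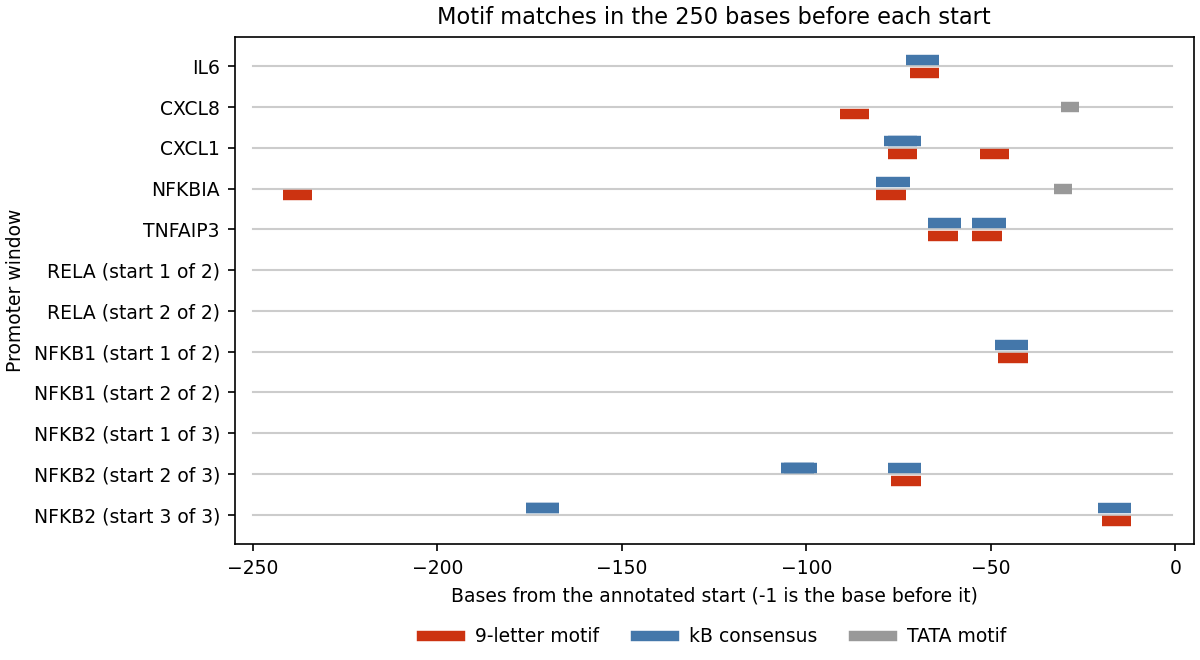
Positions of the 3 motifs in the 250 bases before each listed start of the 8 genes with a RefSeq window, in bases from the start. Most matches lie within 91 bases of the start, the 9-letter motif (GGNNTTTCC) and the kB consensus largely overlap, and both RELA windows are empty.

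IL6, CXCL8 and CXCL1 were abundant in the Sph.WT libraries and below 1 CPM in both other sets, while LIF was graded across the 3 sets. IL6 (chr7:22727200-22731998), which encodes the inflammatory cytokine interleukin-6, had 1, 0 and 1 counts in capsule libraries 1 to 3, or 0.0734, 0 and 0.0700 CPM. In L.O it had 3, 3 and 5 counts, or 0.168, 0.162 and 0.279 CPM. In Sph.WT it had 237, 615 and 210 counts, or 14.2, 22.6 and 14.9 CPM. The 3 sets did not overlap, but the capsule and L.O levels were at or near what 3 counts are worth (0.110 to 0.220 CPM). Summed counts, scaled by effective library size, gave an IL6 level in Sph.WT 90.4 times that in L.O (exact 95% interval 50.3 to 182) and 385 times that in the capsule libraries (106 to 3186). These intervals rest on counts summed over the 3 libraries of a set and do not cover the spread between libraries. They may also be too narrow for counting error, because reads counted without molecular identifiers can be copies of 1 molecule. The L.O to capsule ratio of 4.26 had an interval of 0.930 to 39.6, so a difference between these sets was not detectable at this depth.

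CXCL8 (chr4:73740569-73743716), which encodes the neutrophil chemokine interleukin-8, stood at 0.367, 0.564 and 0.980 CPM in the capsule libraries. Its level was 0.951, 0.432 and 0.837 CPM in L.O and 82.2, 120 and 87.6 CPM in Sph.WT. Capsule and L.O libraries overlapped fully, and each Sph.WT library lay far above both. The log2 difference of L.O from Sph.WT was -7.03 ± 0.204 (SE; adjusted p = 2.89e-19, edgeR), and that of the capsule libraries from L.O was -0.20 ± 0.429 (adjusted p = 0.714, edgeR).

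CXCL1 (chr4:73869393-73871308), a second neutrophil chemokine encoded near CXCL8 on the same chromosome, showed a similar pattern. It stood at 0.220, 0.353 and 0.420 CPM in the capsule libraries, 0.671, 0.486 and 0.892 CPM in L.O and 57.1, 75.2 and 50.4 CPM in Sph.WT. Again the Sph.WT libraries were far above the rest, and the capsule libraries all lay just below the L.O libraries. The log2 difference of L.O from Sph.WT was -6.47 ± 0.198 (SE; adjusted p = 7.44e-19, edgeR). CXCL1 did not pass the filter on low counts in the test of capsule against L.O, and without a filter its log2 difference was -1.01 (adjusted p = 0.0947, edgeR). Reads of CXCL1 may have been split with its close relatives CXCL2 and CXCL3, named here after their values were seen. CXCL2 stood at 0.473 ± 0.171, 0.684 ± 0.220 and 21.2 ± 2.22 CPM and CXCL3 at 0.549 ± 0.163, 0.682 ± 0.0409 and 4.66 ± 0.564 CPM in capsule, L.O and Sph.WT (SD, n = 3), so both were also highest in Sph.WT.

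LIF (chr22:30240453-30246759), which encodes leukemia inhibitory factor, a cytokine of the interleukin-6 family, showed steps of similar size between the 3 sets. Its level was 4.03, 4.58 and 3.92 CPM in the capsule libraries, 17.8, 16.2 and 19.2 CPM in L.O and 74.0, 69.7 and 65.2 CPM in Sph.WT. The 3 sets were fully apart, with L.O between the others. The capsule level was 4.25-fold below L.O (log2 difference -2.09 ± 0.133 SE, adjusted p = 9.9e-10, edgeR), and L.O was 3.92-fold below Sph.WT (-1.97 ± 0.0936, adjusted p = 2.9e-15). LIF was the only cytokine of the 4 with a called difference between the capsule and L.O libraries, where IL6 and CXCL1 could not be tested with the filter. LIF shares 92 and 175 bp of exon with 2 antisense genes, and IL6 shares 46 bp with STEAP1B and 428 bp with an antisense gene. Of the other members, TNFAIP3 shares 95 bp with an antisense gene and RELA 9 bp with a noncoding RNA gene. Reads of such pairs cannot be told apart here, because the strand setting was not given in the sources used here.

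**Figure D3:**
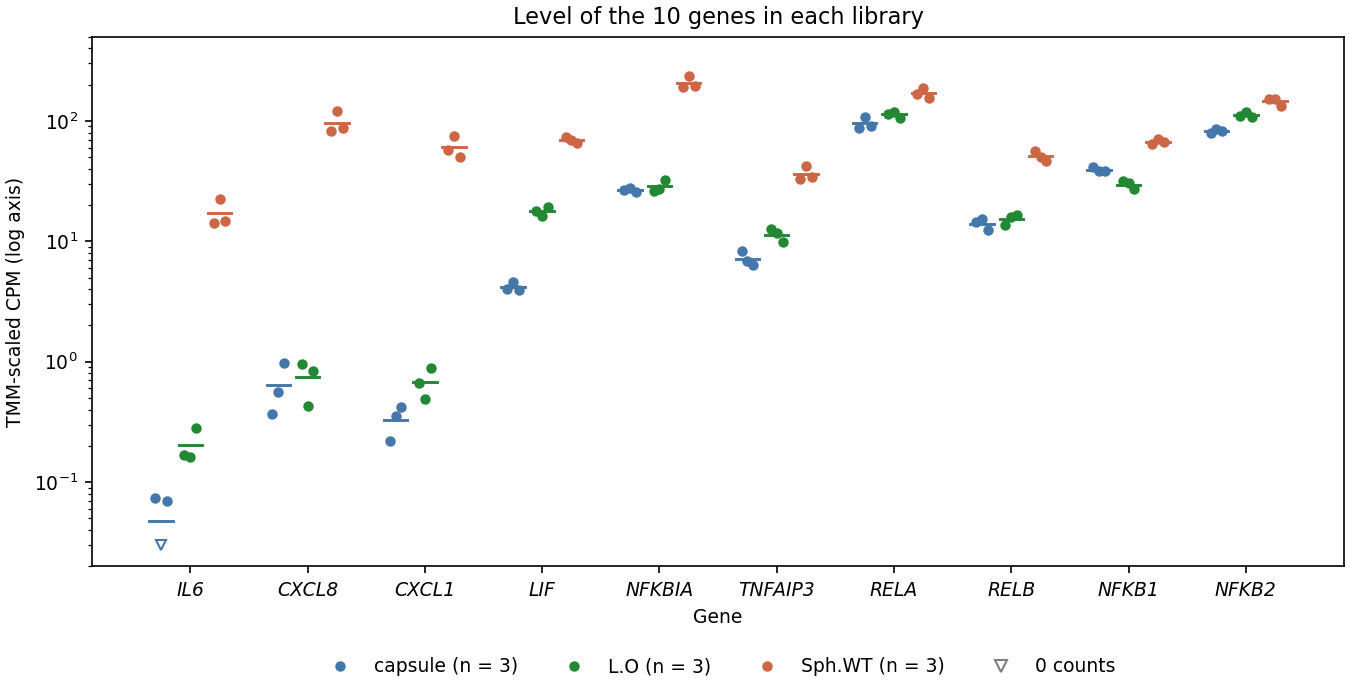
TMM-scaled CPM (log axis) of the 10 genes, with 1 point per library, a bar at the mean of each set (n = 3) and an open triangle for 0 counts. IL6, CXCL8 and CXCL1 lie below 1 CPM in all capsule and L.O libraries and at 14.2 to 120 CPM in Sph.WT, and LIF lies at 3 separate levels.

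The feedback inhibitors were highest in Sph.WT as well. NFKBIA (chr14:35401513-35404749), which encodes the inhibitor IkB-alpha, stood at 26.6, 27.6 and 25.9 CPM in the capsule libraries and 26.0, 27.3 and 32.4 CPM in L.O. In Sph.WT it stood at 190, 235 and 193 CPM. Capsule and L.O libraries overlapped and Sph.WT was above every one of them. The L.O level was 7.23-fold below Sph.WT (log2 difference -2.85 ± 0.0970 SE, adjusted p = 5.2e-18, edgeR), and the capsule libraries differed from L.O by -0.10 ± 0.0969 (adjusted p = 0.406).

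TNFAIP3 (chr6:137866349-137883312), which encodes a ubiquitin-editing enzyme that ends signalling from TNF and Toll-like receptors, was graded. Its level was 8.29, 6.84 and 6.30 CPM in the capsule libraries, 12.6, 11.7 and 9.87 CPM in L.O and 32.8, 42.1 and 34.5 CPM in Sph.WT. No library of 1 set lay within the range of another. The log2 difference was -0.68 ± 0.139 for capsule against L.O (SE; adjusted p = 0.000501, edgeR) and -1.69 ± 0.122 for L.O against Sph.WT (adjusted p = 8.95e-12). Of the inhibitors, TNFAIP3 was thus called between capsule and L.O and NFKBIA was not, and whether their differences were unequal was not tested.

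The subunit genes were detected in every library. RELA (chr11:65653601-65663857), which encodes the main activating subunit of the canonical branch, stood at 88.1, 108 and 90.4 CPM in the capsule libraries, 114, 119 and 107 CPM in L.O and 168, 186 and 154 CPM in Sph.WT. Capsule library 2 reached into the L.O range, and Sph.WT lay above both. L.O was 1.49-fold below Sph.WT (log2 difference -0.58 ± 0.0860 SE, adjusted p = 1.53e-06, edgeR), a call that was lost when library totals replaced TMM scaling (-0.12, adjusted p = 0.191). The capsule against L.O difference of -0.25 ± 0.0815 (adjusted p = 0.0154) was lost without capsule library 1, capsule library 3 or L.O library 2, with adjusted p-values of 0.114, 0.0761 and 0.0841.

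RELB (chr19:45001464-45038192), the activating subunit of the non-canonical branch, stood at 14.5, 15.3 and 12.4 CPM in the capsule libraries, 13.6, 15.9 and 16.6 CPM in L.O and 56.2, 49.7 and 46.8 CPM in Sph.WT. Capsule and L.O ranges overlapped, and Sph.WT was above both. The L.O level was 3.31-fold below Sph.WT (log2 difference -1.73 ± 0.105 SE, adjusted p = 3.41e-13, edgeR). Between capsule and L.O the difference was -0.13 ± 0.117 (adjusted p = 0.359).

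NFKB1 and NFKB2 each encode a precursor protein that is processed to a DNA-binding subunit. NFKB1 (chr4:102501359-102617302), of the canonical branch, stood at 41.1, 38.1 and 38.2 CPM in the capsule libraries, 31.5, 30.3 and 27.1 CPM in L.O and 64.6, 70.6 and 66.3 CPM in Sph.WT. It was the 1 gene of the 8 tested that was higher in capsule than in L.O libraries, with no overlap (1.32-fold, log2 difference 0.40 ± 0.0863 SE, adjusted p = 0.00082, edgeR). L.O was below Sph.WT by a log2 difference of -1.18 ± 0.0838 (adjusted p = 5.81e-12).

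NFKB2 (chr10:102394110-102402529), of the non-canonical branch, moved the other way between the same sets. Its level was 79.4, 85.3 and 82.5 CPM in the capsule libraries, 109, 118 and 108 CPM in L.O and 152, 152 and 132 CPM in Sph.WT. Each set was apart from the others, with capsule lowest. The capsule against L.O difference was -0.44 ± 0.0710 (SE; adjusted p = 4.16e-05, edgeR). The L.O against Sph.WT difference of -0.38 ± 0.0752 (adjusted p = 6.34e-05) depended on the scaling and became 0.08 with library totals (adjusted p = 0.289), so its sign depended on the scaling.

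Across the 10 genes, all were called lower in L.O than in Sph.WT by edgeR's quasi-likelihood test at an adjusted p of 0.05. Over all 16985 genes tested, 85.5% were called in this comparison, 43.1% lower and 42.4% higher. IL6 and CXCL1 passed the filter only through the Sph.WT libraries and so had to differ, and the count of 10 carries little weight against that background. Among the genes that passed the filter without the Sph.WT libraries, 8 of 8 members were lower, with a median log2 difference of -1.71, and 85.2% of 15919 genes were called, with a median of 0.09. With library totals in place of TMM scaling the median over all 16985 genes moved from -0.012 to 0.452, and the share of calls that were higher in L.O moved from 49.6% to 63.9%. RELA and NFKB2 lost their calls under that scaling, and the differences of both lay below the shifted median.

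Capsule libraries against Sph.WT gave a similar picture, in a comparison that shares its Sph.WT libraries with the one above. All 10 genes were called lower in the capsule libraries, against 86.1% of 16157 genes called, 42.9% lower and 43.2% higher. The log2 differences were -8.28 for IL6, -7.19 for CXCL8, -7.46 for CXCL1 and -4.02 for LIF. They were -2.91 for NFKBIA, -2.32 for TNFAIP3 and -1.82 for RELB, and between -0.79 and -0.74 for RELA, NFKB2 and NFKB1. In this fit IL6, CXCL1 and also CXCL8 passed the filter only through the Sph.WT libraries and so had to differ.

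Capsule against L.O compared the 2 sets that went against the cell line label. They were not alike in the MDA-MB-231 markers either: of 19 tested, 9 were lower and 1 higher in the capsule libraries (median log2 difference -0.45, against -0.01 over all genes). LGALS1 stood at 29.3 ± 3.11 and 99.9 ± 7.25 CPM, CD44 at 2.12 ± 0.326 and 4.97 ± 0.278 and AXL at 0.790 ± 0.350 and 2.93 ± 0.0713, and the part of these markers in the results was not tested. Of the 8 genes tested, 4 were called lower in the capsule libraries (LIF, TNFAIP3, NFKB2 and RELA), 1 was called higher (NFKB1) and 3 were not called (NFKBIA, RELB and CXCL8). Over all 15919 genes tested, 50.1% were called, 25.4% lower and 24.7% higher. The share of called members was therefore near the background, and LIF, at 4.25-fold, was the one with the greatest difference of the 8. With library totals the share of calls that were higher in the capsule libraries moved from 49.4% to 28.0%, the median over all genes moved from -0.01 to -0.156, and NFKBIA became called (-0.25, adjusted p = 0.0403, edgeR).

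Capsule libraries against the mean of both spheroid sets, the comparison nearest to the study's labels, called all 10 genes lower, against 74.4% of 16985 genes called, 35.6% lower and 38.9% higher. IL6 and CXCL1 passed the filter of this fit only through the Sph.WT libraries and so had to differ. The count of 10 therefore carries little weight against that background. Their log2 differences were -5.13 and -4.26. Those of the other 8 genes ranged from -3.71 for CXCL8 to -0.19 for NFKB1 (adjusted p = 0.0248, edgeR). The 2 spheroid sets differed from each other, and for NFKB1 the average had the opposite sign to the comparison with L.O alone (0.40), and the call was lost with library totals (adjusted p = 0.171), without capsule library 2 or 3 (0.0926 and 0.0953) or without L.O library 1 (0.0564). When the 6 spheroid libraries were fitted as 1 class, whose spread then included the gap between the sets, LIF alone of the 10 stayed called and the adjusted p-values of the other 9 were 0.0535 to 0.614.

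**Figure D4:**
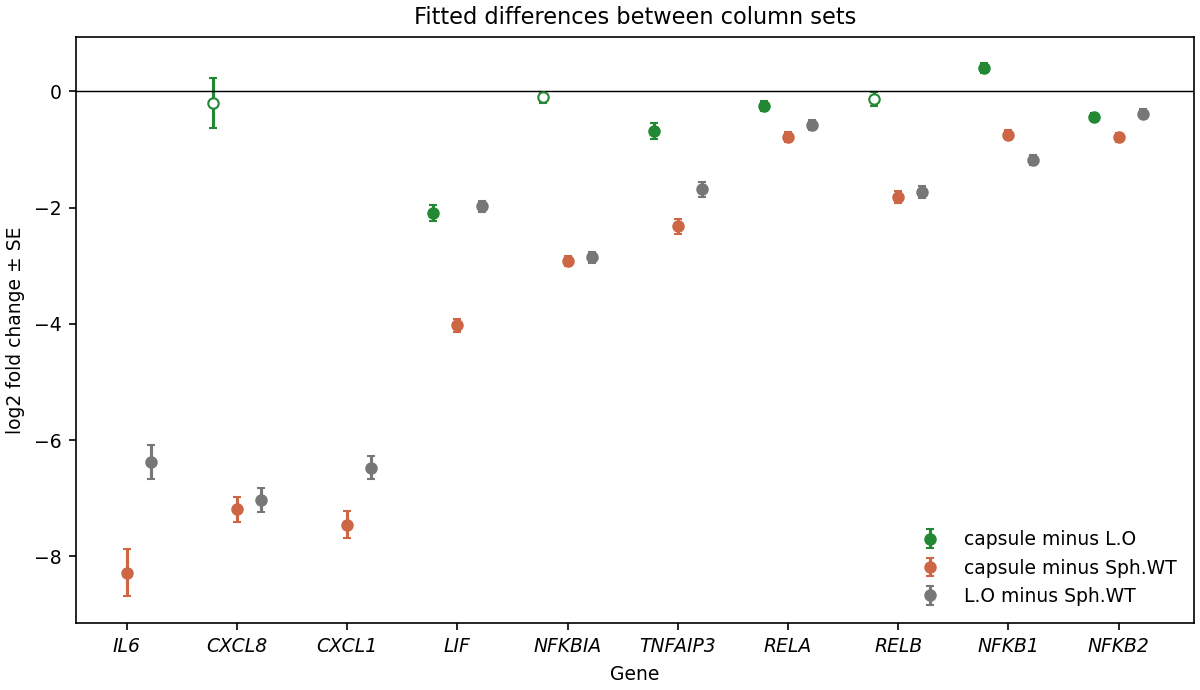
Fitted log2 differences with SE (edgeR) of the 10 genes between column sets, filled where the adjusted p was under 0.05. Differences from Sph.WT (red and grey) are below 0 for all 10 genes and reach -8.28 for IL6, while capsule minus L.O (green, not tested for IL6 and CXCL1) stays within 0.68 of 0 except for LIF at -2.09.

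Levels were compared between genes per kb of joined exon. In the capsule libraries RELA led with 28.2 CPM per kb, followed by NFKB2 (22.4), NFKBIA (14.04), NFKB1 (7.09), RELB (6.11), TNFAIP3 (1.51), LIF (1.05), CXCL8 (0.318), CXCL1 (0.302) and IL6 (0.0279). Of the neighbours in that order CXCL8 and CXCL1 overlapped between libraries. L.O began alike, with RELA (33.4), NFKB2 (30.3) and NFKBIA (15.0), of which the first pair overlapped, and went on with RELB (6.68), NFKB1 (5.37), LIF (4.47), TNFAIP3 (2.40), CXCL1 (0.623), CXCL8 (0.369) and IL6 (0.118), with CXCL1 and CXCL8 overlapping.

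Sph.WT had another order, with the inhibitor and the chemokines among the subunits. NFKBIA led with 109 CPM per kb, followed by CXCL1 (55.5), RELA (49.9), CXCL8 (48.2), NFKB2 (39.5), RELB (22.1), LIF (17.5), NFKB1 (12.2), IL6 (10.1) and TNFAIP3 (7.69). Each neighbouring pair from CXCL1 to NFKB2 overlapped, as did those from NFKB1 to TNFAIP3.

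Ratios between members within a library do not depend on the library's scaling. The NFKBIA to RELA ratio per kb was 0.501 ± 0.0419 in the capsule libraries (SD, n = 3), 0.452 ± 0.0774 in L.O and 2.17 ± 0.130 in Sph.WT. The inhibitor thus exceeded the subunit per kb in each Sph.WT library and in no other. The NFKB2 to NFKB1 ratio was 3.16 ± 0.237, 5.67 ± 0.427 and 3.25 ± 0.278 in the same order. L.O stood above both other sets in this ratio, and capsule and Sph.WT libraries overlapped.

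The RELA to RELB ratio was 4.63 ± 0.430 in the capsule libraries, 5.05 ± 0.674 in L.O and 2.27 ± 0.261 in Sph.WT, which was below both. The chemokines CXCL8 and CXCL1 stood in a ratio of 1.02 ± 0.222, 0.592 ± 0.160 and 0.871 ± 0.0818, on few counts in the first 2 sets. In Sph.WT the CXCL8 to IL6 ratio was 4.85 ± 0.271 and the LIF to IL6 ratio 1.83 ± 0.465, while in L.O LIF stood at 39.6 ± 8.60 times IL6, on 11 IL6 counts. The TNFAIP3 to NFKBIA ratio was 0.0708 ± 0.00152 in Sph.WT, below the capsule (0.107 ± 0.0154) and L.O (0.163 ± 0.0368) ratios. These ratios are described without a test.

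The rest of the pathway was followed through lists of genes by role. Beside each count stand 2 comparisons, L.O against Sph.WT (85.5% of all genes called) and capsule against L.O (50.1% called). Ligand genes upstream of NF-kB had means of at most 2.32 CPM outside Sph.WT. Of 7 ligands 4 were in the table and 3 passed the filter, all lower in L.O than in Sph.WT. IL1B, encoding interleukin-1 beta, stood at 0.0468 ± 0.0406 CPM in the capsule libraries, 0.0745 ± 0.0645 in L.O and 25.03 ± 4.46 in Sph.WT (SD, n = 3). IL1A, encoding interleukin-1 alpha, stood at 0.118 ± 0.0797, 0.184 ± 0.0857 and 7.26 ± 1.17 CPM. Both passed the filter through Sph.WT. TNFSF12, encoding the ligand TWEAK, stood at 0.786 ± 0.196, 2.32 ± 0.501 and 20.2 ± 6.67 CPM and was the 1 ligand tested in capsule against L.O, where it was lower (log2 difference -1.56, adjusted p = 0.000281, edgeR).

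Of 11 upstream receptors, TLR2, TLR3 and TLR4 passed the filter only through Sph.WT and so had to differ. Of the other 8, 7 were lower and 1 higher in L.O than in Sph.WT (median log2 difference -2.63, against 0.09 over all genes that passed without Sph.WT). In capsule against L.O 1 of these 8 was called, TNFRSF1B, a TNF receptor of restricted expression, at 0.596 ± 0.358 and 1.51 ± 0.245 CPM (log2 difference -1.34, adjusted p = 0.00648, edgeR), while with library totals 5 of the 8 were called, all lower. It reached 45.8 ± 7.40 CPM in Sph.WT. TNFRSF1A, the widely expressed TNF receptor, stood at 37.0 ± 1.01, 39.3 ± 0.948 and 157 ± 11.6 CPM in capsule, L.O and Sph.WT. LTBR, the lymphotoxin beta receptor, which feeds the non-canonical branch, stood at 1.505 ± 0.645, 1.28 ± 0.509 and 135 ± 9.97 CPM.

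The interleukin-1 receptor IL1R1 stood at 1.56 ± 0.344, 2.29 ± 0.264 and 51.8 ± 6.01 CPM, and its accessory chain IL1RAP at 4.99 ± 0.225, 6.32 ± 1.16 and 42.3 ± 5.39 CPM. TLR2 and TLR4, sensors of bacterial products, had mean levels of at most 0.0245 CPM in capsule and L.O, and 31.0 ± 2.90 and 20.5 ± 2.63 CPM in Sph.WT. TLR3, a sensor of double-stranded RNA, stood at 0.263 ± 0.115, 0.441 ± 0.0929 and 8.53 ± 0.292 CPM. Each of these 5 genes had a mean of at most 6.32 CPM in the capsule and L.O libraries. CD40 stood at 3.71 ± 1.21, 4.79 ± 0.537 and 24.7 ± 0.439 CPM and TNFRSF12A, the receptor for TWEAK, at 28.3 ± 1.45, 28.1 ± 1.69 and 161 ± 16.4 CPM. TNFRSF12A was also counted among the MDA-MB-231 markers above. TNFRSF11A, the receptor RANK, was the exception, at 7.83 ± 0.488, 7.32 ± 0.565 and 4.10 ± 0.926 CPM, and was higher in L.O than in Sph.WT (log2 difference 0.88, adjusted p = 4.44e-05, edgeR).

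Kinases and adaptors between receptor and IkB followed with smaller differences. Of 20 genes, 18 were lower and 2 higher in L.O than in Sph.WT (median log2 difference -0.70), and in capsule against L.O 4 were lower, 5 higher and 11 not called (median -0.09). With library totals these counts were 11 lower, 4 higher and 5 not called in the first comparison, and 11 lower, 2 higher and 7 not called in the second. CHUK, TRAF2 and TRAF6 changed sign there in L.O against Sph.WT. IKBKE, an IkB kinase relative that is itself inducible, stood at 14.3 ± 0.561, 16.4 ± 1.28 and 153 ± 8.10 CPM in capsule, L.O and Sph.WT. MAP3K14, the kinase of the non-canonical branch, stood at 12.5 ± 1.43, 14.8 ± 1.06 and 59.9 ± 5.30 CPM, and MYD88, the adaptor of interleukin-1 and Toll-like receptors, at 9.60 ± 1.37, 11.2 ± 1.48 and 59.3 ± 4.27 CPM. The adaptors TRAF1 and TRADD were lower in capsule than in L.O, with log2 differences of -0.56 (adjusted p = 0.01) and -0.69 (adjusted p = 0.000135, edgeR). TRAF1 stood at 4.56 ± 0.848, 6.71 ± 0.908 and 25.1 ± 2.74 CPM and TRADD at 12.1 ± 1.07, 19.4 ± 3.09 and 33.8 ± 2.86 CPM. The 2 genes higher in L.O than in Sph.WT, named after their values were seen, were IRAK1 and TAB1. IRAK1 had means of 501, 506 and 320 CPM and TAB1 of 90.9, 89.4 and 35.97 CPM. CHUK, also named after its values were seen, went the other way between capsule and L.O, at means of 88.7, 57.04 and 68.1 CPM. With library totals CHUK was called higher in capsule (log2 difference 0.49, adjusted p = 5.77e-05, edgeR).

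Of 12 further negative regulators, TNIP3 passed the filter only through Sph.WT, and the other 11 were lower in L.O than in Sph.WT (median log2 difference -1.40). In capsule against L.O, 2 were lower, 3 higher and 6 not called of 11 tested, and with library totals 2 were lower, 1 higher and 8 not called. BIRC3, a ubiquitin ligase that restrains MAP3K14 and is also an NF-kB target, had the greatest difference, from 0.478 ± 0.162 CPM in the capsule libraries and 0.975 ± 0.175 in L.O to 237 ± 13.4 in Sph.WT. Its relative BIRC2 stood at 36.0 ± 1.95, 30.05 ± 2.12 and 187 ± 6.33 CPM and was higher in capsule than in L.O (log2 difference 0.26, adjusted p = 0.0196, edgeR), though not called with library totals. TNIP1, which works with the TNFAIP3 product, stood at 69.4 ± 3.53, 82.0 ± 6.78 and 278 ± 16.4 CPM.

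Of 6 genes for other subunits and IkB proteins, 3 were lower, 2 higher and 1 not called in L.O against Sph.WT. BCL3, a coactivator of NFKB1 and NFKB2 homodimers, was graded at 4.44 ± 0.250, 9.11 ± 0.777 and 58.3 ± 1.97 CPM, and was lower in capsule than in L.O (log2 difference -1.04, adjusted p = 8.66e-06, edgeR). NFKBIZ, a nuclear IkB protein needed for IL6 induction, stood at 7.22 ± 0.466, 8.48 ± 0.394 and 57.3 ± 8.49 CPM, and NFKBIE at 7.75 ± 1.75, 7.95 ± 1.21 and 64.1 ± 6.67 CPM. NFKBIB and NFKBID went the other way, at 44.7 ± 6.11, 37.6 ± 2.92 and 24.6 ± 5.34 CPM and at 12.1 ± 0.685, 11.6 ± 0.609 and 5.65 ± 0.749 CPM. REL, the remaining subunit gene, named after its values were seen, was at 26.4 ± 0.979, 19.6 ± 3.66 and 17.0 ± 2.27 CPM, and like NFKB1 it was higher in capsule than in L.O (log2 difference 0.43, adjusted p = 0.00435, edgeR).

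Among 25 other NF-kB targets 19 were in the table, of which 7 passed the filter only through Sph.WT. Of the other 12, 9 were lower and 3 higher in L.O than in Sph.WT (median log2 difference -2.94). In capsule against L.O the same 12 were tested, 8 of them lower, 2 higher and 2 not called (median -0.42, against -0.01 over all genes), and with library totals none of the 12 was called higher and 8 were called lower. ICAM1, an adhesion molecule, stood at 1.10 ± 0.420, 2.49 ± 0.280 and 330 ± 41.5 CPM in capsule, L.O and Sph.WT, and TNFAIP2 at 2.03 ± 0.468, 4.69 ± 0.423 and 472 ± 28.5 CPM. PLAU, the urokinase gene, stood at 0.952 ± 0.164, 3.35 ± 0.278 and 223 ± 9.29 CPM. Like LIF, these 3 genes were lower in capsule than in L.O, with log2 differences of -1.18 (adjusted p = 0.00172), -1.22 (7.31e-05) and -1.81 (7.69e-06, edgeR). Unlike LIF, their step from L.O to Sph.WT was far larger than that from capsule to L.O.

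SAA1, an acute phase gene, had no count in the capsule libraries, 3 counts in L.O and 38.8 ± 6.46 CPM in Sph.WT, and VCAM1, another adhesion molecule, stood at 0.0713 ± 0.00181, 0.203 ± 0.118 and 18.8 ± 1.96 CPM. Genes that went against the majority are named here after their values were seen. PTGS2, the inducible cyclooxygenase, was at 4.73 ± 0.469, 3.44 ± 0.509 and 0.0690 ± 0.0740 CPM, and IL11, a cytokine of the interleukin-6 family, at 4.52 ± 0.748, 6.003 ± 0.462 and 0.522 ± 0.359 CPM. Both were higher in L.O than in Sph.WT, with log2 differences of 5.21 (adjusted p = 2.5e-11) and 3.40 (1.53e-10, edgeR). The third was the protease gene MMP9 (0.73, adjusted p = 0.011).

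**Figure D5:**
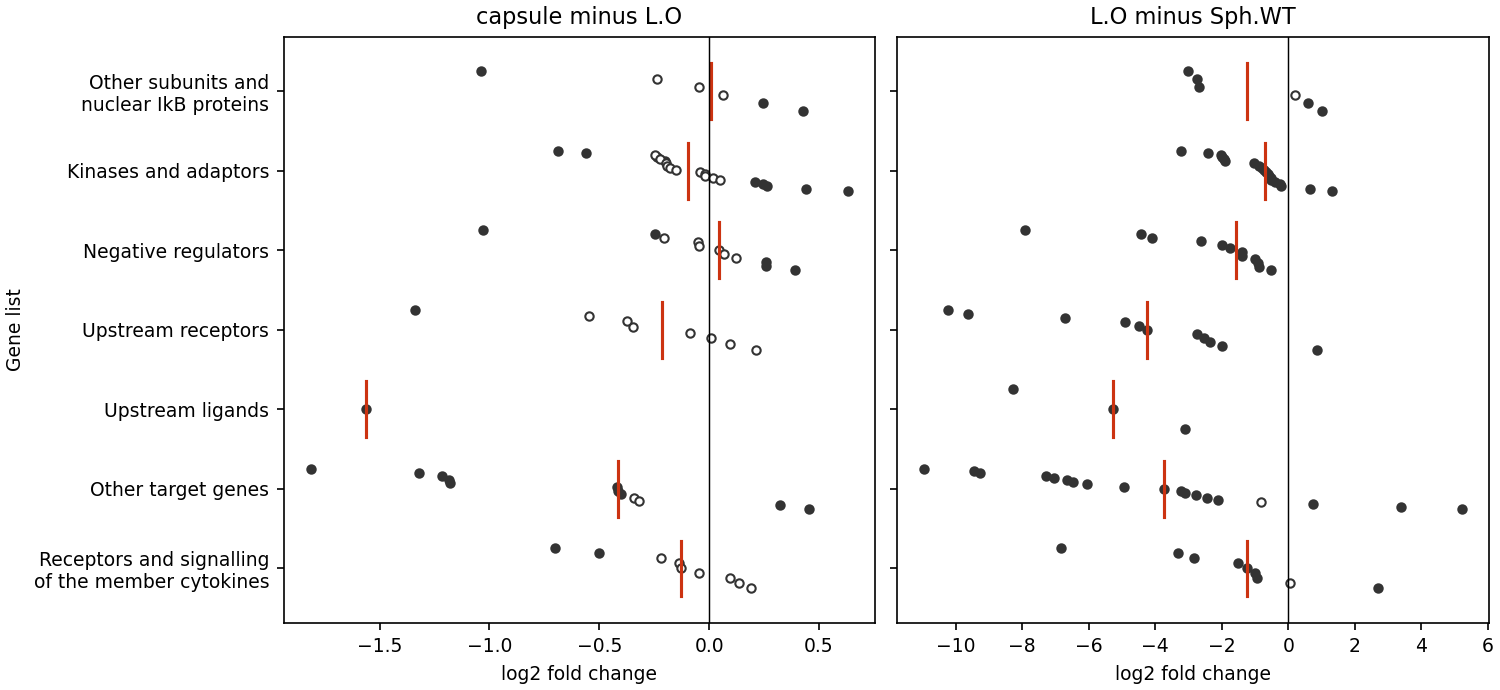
Log2 differences of the genes of 7 pathway lists for capsule minus L.O (left) and L.O minus Sph.WT (right, wider axis), filled where the adjusted p was under 0.05, with a red bar at each list's median. The medians lie near 0 on the left except for other targets and the 1 ligand tested, and below 0 for all 7 lists on the right, which includes genes that passed the filter only through Sph.WT. There PTGS2 and IL11 are the points farthest above 0.

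Receptors and signalling genes that read the member cytokines were also followed. Of 11 genes 9 were in the table, and 7 were lower, 1 higher and 1 not called in L.O against Sph.WT. IL6ST, the shared signal chain of interleukin-6 and LIF, stood at 54.4 ± 2.82, 47.6 ± 4.604 and 478 ± 63.9 CPM in capsule, L.O and Sph.WT. OSMR, the oncostatin M receptor, stood at 2.52 ± 0.632, 2.74 ± 0.262 and 313 ± 50.9 CPM, and LIFR, the LIF receptor, at 21.1 ± 1.34, 19.2 ± 1.65 and 54.9 ± 5.16 CPM. None of these 3 was called between capsule and L.O (adjusted p of 0.0653, 0.663 and 0.278, edgeR). IL6R, the specific interleukin-6 receptor, had the opposite pattern to its ligand, at 11.1 ± 0.635, 12.9 ± 0.847 and 2.01 ± 0.270 CPM, and was higher in L.O than in Sph.WT (log2 difference 2.71, adjusted p = 8.62e-14).

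Downstream of these receptors, STAT3 stood at 79.4 ± 3.00, 112 ± 7.31 and 268 ± 12.6 CPM and its feedback target SOCS3 at 3.49 ± 0.645, 5.68 ± 0.822 and 40.9 ± 4.74 CPM. They were the 2 genes of this list that were lower in capsule than in L.O, with log2 differences of -0.50 (adjusted p = 1.63e-05) and -0.70 (0.00321, edgeR), and with library totals 5 of the 9 were called lower. The kinases JAK1 and JAK2 stood at 93.9 ± 2.74, 96.7 ± 8.22 and 192 ± 19.2 CPM and at 4.42 ± 1.03, 4.12 ± 0.382 and 7.94 ± 0.957 CPM, and both were lower in L.O than in Sph.WT. TYK2, another kinase of the family, stood at 135 ± 3.79, 148 ± 7.92 and 142 ± 5.19 CPM and was called in neither comparison (adjusted p = 0.428 and 0.11, edgeR). With library totals it was called in both, at log2 differences of 0.52 for L.O against Sph.WT (adjusted p = 3.96e-07) and -0.28 for capsule against L.O (adjusted p = 0.00212).

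Genes with the pattern most like that of IL6 and CXCL8 over the 9 libraries were listed by root mean square distance of centred log2(CPM + 0.5), among 15357 genes with a mean of at least 1 CPM. For IL6 they were ATP1B1 (distance 0.110 on the log2 scale), CCDC190 (0.144), PCDHGB1 (0.149), ZNF334 (0.154) and ZNF43 (0.163). The last 4 were also nearest with a pseudocount of 1, but ATP1B1 was not, so its first place depended on the pseudocount. ATP1B1 stood at means of 17.8, 20.8 and 522 CPM in capsule, L.O and Sph.WT, where IL6 stood at 0.0478, 0.203 and 17.2 CPM. For CXCL8 they were MX1 (0.227), DBH-AS1 (0.249), HS3ST1 (0.250), C15orf48 (0.251) and ARMCX2 (0.252), of which only C15orf48 was also nearest with a pseudocount of 1. C15orf48 stood at 0.594 ± 0.103, 0.480 ± 0.0926 and 91.5 ± 4.23 CPM in capsule, L.O and Sph.WT (SD, n = 3). The 9 libraries share the gap between Sph.WT and the other sets, which many genes follow, so these lists are a description.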

How the data were processed

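The deposited values were whole-number counts of reads per gene, not normalized, for 17911 genes in 9 columns. The submitters' processing notes name hg38, featureCounts and limma. For annotation and strandedness the sources used here gave nothing. No source stated the aligner, though the capsule and L.O column names hold the word subread and the Sph.WT names do not. The members and the gene lists were chosen with earlier results of these data known.

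The main test was edgeR's quasi-likelihood test (edgeR 4.0.16, R 4.3.3) with TMM scaling, edgeR's default filter on low counts and Benjamini-Hochberg adjustment over all genes tested, at 0.05. One fit with 3 column sets gave the spheroid mean and the 2 spheroid sets; capsule against L.O or Sph.WT came from fits on those 6 columns, reported on their own after the data were seen. The tests were tried on simulated counts. Alternatives were DESeq2 1.42.0, limma-voom 3.58.1, library totals, no filter, a replicate block, each column left out, and 1 spheroid class.

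Named genes were the 10 members, up to 5 per list with the greatest change among those called for capsule against spheroid, every listed receptor, and the 5 nearest patterns. No replicate pair was a duplicate: 1203 to 5055 genes differed beyond counting noise. Coordinates came from RefSeq (GRCh38.p14) by gene ID and joined exon lengths from GENCODE release 29.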

Additional observations from a re-analysis of the deposited data

How the results depend on the processing

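Counts of called genes for capsule against the spheroid mean were 11859 to 12687 with 1 column left out, 639 with 1 spheroid class and 7970 against L.O alone. They were 14312 to 14760 for L.O against Sph.WT with 1 column left out. With a replicate block the counts were 12337, 14350 and 7145 for capsule against the spheroid mean, L.O against Sph.WT and capsule against L.O. Libraries of the same number did not deviate together (correlations -0.116 to 0.0233, against -0.086 to 0.145 for different numbers), so no pairing by number was seen. This check cannot tell whether libraries of the same number share a culture or batch. The log2 difference changed sign for NFKB1 in capsule against L.O alone (0.40), for NFKB2 in L.O against Sph.WT with library totals (0.0818), and for CXCL8 in capsule against L.O without capsule replicate 1 (0.0632) or without L.O replicate 1 (0.0145), within a range of -0.651 to 0.0632 with 1 column left out. The cause was not tested, except that library totals shift the median of all genes. For capsule against Sph.WT all 110 values of the 10 genes kept their direction and call. Depth limits IL6, CXCL1 and CXCL8 in the capsule and L.O libraries.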
